A study of Mus musculus with 2 samples.

Results

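The beta-tubulin genes Tubb2a, Tubb2b, Tubb3, Tubb4a, Tubb4b, Tubb5 and Tubb6 were taken by name from 2 Drop-seq files of mouse medulloblastoma. All 7 are listed in both files, 7 of the 16055 gene names that the files share. One library came from tumours of hGFAPcre;Ptchc/c mice at postnatal days 24 to 30 (P24-30) and the other from tumours of the same genotype at postnatal day 12 (P12). In both, Cre is driven by a human GFAP promoter and the Ptch alleles are conditional, so both groups share the Cre transgene and the Ptch deletion it makes, in the neural progenitors where that promoter is active, and wild-type cells are not analysed here. There is 1 library per age, the number of animals behind each is not given, and no result below carries a test.

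A microtubule is built from pairs of one alpha- and one beta-tubulin. Vertebrates make several beta-tubulin isotypes from separate genes; their globular bodies are nearly alike, and they differ mostly in a short acidic tail that faces outward and is touched by motors, microtubule-associated proteins and modifying enzymes. Tubb3 is the isotype classically used to mark neurons, Tubb2a and Tubb2b are abundant in brain, Tubb5 is the broadly expressed isotype of dividing cells, and Tubb4b is found in many tissues and in cilia. Tubb4a is made by neurons and oligodendrocytes, and in humans its mutation causes a white matter disease. Tubb6 is made mainly outside the nervous system. Loss of Ptch, a repressor of Hedgehog signalling, drives granule neuron progenitors of the cerebellum to keep dividing, and cells of such tumours can also leave the cycle and take on neuronal features.

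The isotypes are set apart by the end of their coding sequence, so the last 20 codons and the stop codon are shown first for the 6 members whose sequence is given here, read from the GENCODE vM21 transcripts on GRCm38 (the same assembly as mm10). Each is printed 5′ to 3′ on the coding strand, with codons for aspartate or glutamate in capitals.
Tubb2a: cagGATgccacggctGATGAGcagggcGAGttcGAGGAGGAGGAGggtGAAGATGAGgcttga
Tubb2b: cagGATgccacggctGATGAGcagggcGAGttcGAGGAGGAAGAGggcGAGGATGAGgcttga
Tubb3: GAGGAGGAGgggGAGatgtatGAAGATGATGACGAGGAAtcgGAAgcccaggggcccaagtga
Tubb4a: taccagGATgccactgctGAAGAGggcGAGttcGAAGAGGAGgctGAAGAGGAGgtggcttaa
Tubb4b: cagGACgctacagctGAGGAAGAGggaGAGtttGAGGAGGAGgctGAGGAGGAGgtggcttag
Tubb5: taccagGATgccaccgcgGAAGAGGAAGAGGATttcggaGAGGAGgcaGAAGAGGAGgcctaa
The tail of Tubb4a holds 10 acidic codons and that of each of the other 6 members, Tubb6 included, holds 11. Tubb2a and Tubb2b are alike over 95% of these tail bases and 96.5% of all coding bases, the highest of the 21 pairs of isotypes on both measures. Across the 21 pairs, identity ran from 80.2% to 96.5% over the whole coding sequence and from 40% to 95% over the tail, with medians of 83.6% and 58.3%. Tubb3 shared 40% to 43.3% of tail bases with any other isotype, and Tubb6 was as low with Tubb2a (41.7%) and Tubb2b (43.3%). The windows are counted back from the stop codon. Tubb3 has 450 codons against 444 to 447 in the others, so its window is offset, and the part of that in these values was not tested. All 7 transcripts have 4 exons, encode 444 to 450 residues and open with the codons for methionine, arginine, glutamate and isoleucine, the start that tubulin autoregulation reads in the growing protein.

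RefSeq promoters (GRCm38.p6, 250 bases before to 50 after the start) were at hand for 5 members, and 3 are shown, 5′ to 3′ on the gene's strand: that of Tubb4b, the isotype lower in neuron-like than in cycling cells below, and those of Tubb3 and Tubb2a, which had the highest ratios between these classes at P12. Capitals mark matches on either strand to CCAAT, the E-box CANNTG, the cell cycle element TTTGAA and the TATA box TATAAA. The Tubb4b promoter is chr2:25224653-25224952 (minus strand), that of Tubb3 is chr8:123411303-123411602 (plus strand) and that of Tubb2a is chr13:34077959-34078258 (minus strand).
Tubb4b: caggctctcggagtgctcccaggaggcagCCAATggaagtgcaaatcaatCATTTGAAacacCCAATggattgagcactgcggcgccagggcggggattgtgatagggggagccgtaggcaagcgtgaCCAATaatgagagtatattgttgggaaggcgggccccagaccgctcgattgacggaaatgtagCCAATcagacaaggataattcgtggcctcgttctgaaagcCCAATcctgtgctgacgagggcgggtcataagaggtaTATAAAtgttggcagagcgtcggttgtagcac
Tubb3: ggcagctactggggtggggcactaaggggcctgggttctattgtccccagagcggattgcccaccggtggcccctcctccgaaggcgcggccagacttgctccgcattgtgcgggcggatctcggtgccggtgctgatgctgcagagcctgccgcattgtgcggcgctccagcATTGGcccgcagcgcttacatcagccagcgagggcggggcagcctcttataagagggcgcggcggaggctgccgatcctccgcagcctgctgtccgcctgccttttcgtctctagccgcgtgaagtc
Tubb2a: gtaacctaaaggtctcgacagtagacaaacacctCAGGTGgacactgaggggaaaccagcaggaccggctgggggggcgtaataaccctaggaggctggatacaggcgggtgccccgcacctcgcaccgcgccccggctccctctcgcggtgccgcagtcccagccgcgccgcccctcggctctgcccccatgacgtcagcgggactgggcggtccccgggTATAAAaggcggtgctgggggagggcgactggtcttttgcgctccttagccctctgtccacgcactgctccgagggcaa
CCAAT occurs at 5 places in the Tubb4b promoter, and 0.27% of 32851 promoters of this length (89 of them) hold 5 or more. Its TTTGAA overlaps its only CANNTG. Tubb3 has 1 CCAAT, as the reverse complement ATTGG, and Tubb2a has 1 CANNTG and 1 TATAAA 29 bases before the start. The Tubb5 promoter holds 2 CCAAT and 1 CANNTG, and that of Tubb4a none of the 4 motifs. Of all promoters, 37.4% hold CCAAT, 72.3% CANNTG, 17.9% TTTGAA and 13.6% TATAAA. A match says only that these letters are present in the window.

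Tubb2a and Tubb2b also lie side by side. Tubb2a spans chr13:34074274-34078007 and Tubb2b chr13:34126748-34130466, both on the minus strand and 48740 bases apart. Tubb3 lies at chr8:123411424-123422015 on the plus strand, Tubb4a at chr17:57080066-57087782, Tubb5 at chr17:35833921-35838306 and Tubb4b at chr2:25222160-25224702, the last 3 on the minus strand, and Tubb6 is on chromosome 18, plus strand. Drop-seq reads the 3′ end of a transcript, so the share of each gene's last 500 transcript bases that another gene also carries was counted in 50-base stretches. For Tubb2a, 191 of 451 stretches (42.4%) occur elsewhere, 185 of them in Tubb2b and 53 in Tubb2a-ps2. For Tubb4b, 159 (35.3%) occur elsewhere, in its processed copies Tubb4b-ps1 and Tubb4b-ps2 and in Gm16165. None did for the other 5 members, and Tubb2a and Tubb4b values are therefore uncertain where reads could be split or dropped. Tubb2b values are uncertain too, since reads of the Tubb2a end could have been counted to Tubb2b. Tubb4b also overlaps Fam166a on the other strand, which held 14 UMIs (molecule counts) among kept cells at P24-30 and 2 at P12, and Tubb3 overlaps Gm20388 on the same strand, a gene neither file lists.

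After filtering, 4787 P24-30 cells (median 2193 UMIs) and 5721 P12 cells (median 1805 UMIs) were kept, out of 4991 and 6000. Each file was clustered alone with all 25 listed tubulin genes left out, so no isotype helped to form a class. One cluster in each file was named neuron-like (689 cells at P24-30, 626 at P12); its summed differentiating-neuron markers stood at 10040 CPM (UMIs scaled to 1000000 per class) in neuron-like cells against 2119 CPM in cycling cells at P24-30, and at 10590 against 2343 CPM at P12. Cycling cells (2260 and 2284) are the G2/M-like and S-phase-like clusters together; summed G2 and M phase markers were at 11690 CPM in G2/M-like against 3382 CPM in S-phase-like cells at P24-30, and at 22060 against 5582 CPM at P12. The cycling class is not made up alike in the 2 files: at P24-30 its S-phase-like part holds a cluster of 923 cells led by histone genes, while at P12 a cluster of 634 cells led by histone genes and one of 277 cells led by Cenpa and Ccnb2 (summed G2 and M phase markers 10330 CPM) fell outside it. Clusters led by Miat and Mroh2a (707 and 680 cells) and by Hes1 (736 and 868 cells) got no cell type name, and the Hes1-led ones carried vascular and fibroblast genes (P24-30) or choroid plexus genes (P12) among their top 10. Glial classes were small: 45 and 104 oligodendrocyte-lineage-like cells, and 39 astrocyte-like cells at P12. Microglia-like cells (55 and 87), which are not of neural origin, served as a gauge of free RNA, and no cell name is shared between the files. At P24-30 this gauge was uneven across cells, as given for Tubb3 below. Microglia-like values can also hold tubulin RNA that these cells make themselves, and that part was not tested.

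Neuron-like cells carried more beta-tubulin RNA than cycling cells in both files, and it was of a different make-up. Tubb3, Tubb2a, Tubb2b and Tubb4a were higher in neuron-like than in cycling cells, with ratios from 3.93 to 7.77, Tubb4b was lower, with ratios of 0.268 and 0.177, and Tubb5 was nearly level. Summed over the 7 genes, beta-tubulin stood at 6975 CPM in neuron-like and 3449 CPM in cycling cells at P24-30, a ratio of 2.02 (95% interval 1.97 to 2.07). At P12 the sums were 4743 and 2667 CPM, a ratio of 1.78 (1.72 to 1.84). These intervals, like all below, cover counting error only. CPM counts captured 3′ ends and is not divided by transcript length.

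Among the neuronal isotypes, Tubb3 had 1908 CPM (1835 to 1984) in neuron-like and 309 CPM (296 to 322) in cycling cells at P24-30, a ratio of 6.18 (5.83 to 6.55). Microglia-like cells there had 161 CPM, and with their level taken off both classes the log2 ratio was 3.56 in place of 2.63. At P12 it had 1235 CPM (1167 to 1306) in neuron-like and 168 CPM (157 to 179) in cycling cells, a ratio of 7.36 (6.76 to 8.02). The intervals of the 2 classes lie far apart in each file, and 0.778% of all genes tested at P24-30 and 0.661% at P12 had a higher ratio. Tubb2a, a brain isotype, had 1089 CPM in neuron-like and 229 CPM in cycling cells at P24-30 (ratio 4.76, 4.43 to 5.11), and 612 against 78.8 CPM at P12 (7.77, 6.87 to 8.80). The P12 cycling level was no higher than that of microglia-like cells, 88.2 CPM (53.1 to 138), so Tubb2a above that level was not detectable in cycling cells there. The microglia-like level came from 19 UMIs in 16 of 87 cells. Whether it is free RNA or their own was not tested, so it cannot show that cycling cells lack Tubb2a. Tubb2b had 1554 CPM in neuron-like and 395 CPM in cycling cells at P24-30 (3.93, 3.71 to 4.16), and 483 against 118 CPM at P12 (4.10, 3.64 to 4.61). The order of these 3 differed between files: Tubb2b was above Tubb2a in neuron-like cells at P24-30 and below it at P12. The part of read counting on bases that Tubb2a and Tubb2b share was not tested. Tubb4a was the scarce one of the group, with 112 CPM in neuron-like and 23.2 CPM in cycling cells at P24-30 (4.83, 3.84 to 6.07), and 33.1 against 7.21 CPM at P12 from 33 and 41 UMIs (4.59, 2.81 to 7.44).

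Tubb4b had the opposite pattern. It stood at 87.2 CPM in neuron-like and 325.7 CPM in cycling cells at P24-30 (ratio 0.268, 0.220 to 0.323; with the microglia-like level taken off both classes the log2 ratio was -2.70 in place of -1.90), and at 32.1 against 181.8 CPM at P12 (0.177, 0.120 to 0.251). At P12 the neuron-like value was below that of microglia-like cells, 46.4 CPM (22.3 to 85.4), so Tubb4b above the microglia-like level was not detectable there at this depth. Whether that level is free RNA or their own was not tested, so it cannot show that neuron-like cells lack Tubb4b. Tubb5 had 2155 CPM in neuron-like and 2109 CPM in cycling cells at P24-30 (1.02, 0.982 to 1.06) and 2347 against 2105 CPM at P12 (1.12, 1.07 to 1.17); it was the most abundant isotype in both classes and both files, and the log2 ratio at P24-30 took either sign under other processing choices. Tubb6 had 69.9 CPM in neuron-like and 58.0 CPM in cycling cells at P24-30, and its interval held 1 (1.21, 0.952 to 1.51). At P12 it came to 1 UMI in neuron-like cells and 46 UMIs in cycling cells (0.124, 0.00307 to 0.726).

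Counted over the family, 4 of 7 members were at least 2-fold higher in neuron-like than in cycling cells at P24-30, where 13.1% of 9763 genes with at least 50 UMIs in these cells were, and 1 of 7 was at least 2-fold lower, where 11.1% were. At P12, 6 members passed the minimum of 50 UMIs (Tubb6 did not); 4 were higher, beside 10.7% of 9829 genes, and 1 was lower, beside 14.2%. The members' median log2 ratio was 1.97 at P24-30 and 2.04 at P12, beside 0.13 and -0.007 over all genes tested. Other quantities moved with these classes. Median depth was 1779 UMIs in neuron-like and 2760.5 in cycling cells at P24-30, and 1449 and 2185 at P12. Summed oligodendrocyte-lineage markers were at 481 CPM in neuron-like cells (8 of 12 genes with a UMI; Sox10, Gpr17, Mag and Lhfpl3 at 0) and 253 CPM in cycling cells (10 of 12; Gpr17 and Lhfpl3 at 0) at P24-30, and at 555 CPM (10 of 12; Sox10 and Mag at 0) and 359 CPM (9 of 12; Gpr17, Mag and Mog at 0) at P12. Summed choroid plexus markers were at 243 CPM in neuron-like and 104 CPM in cycling cells at P24-30 (5 of 6 genes each, Folr1 at 0) and at 39.1 CPM (2 of 6; Folr1, Kl, Clic6 and Prlr at 0) and 30.8 CPM (4 of 6; Folr1 and Prlr at 0) at P12. Summed microglia markers were at 27.1 CPM (9 of 12; C1qa, P2ry12 and Tyrobp at 0) and 22.0 CPM (12 of 12) at P24-30, and at 25.1 CPM (8 of 12; Cx3cr1, P2ry12, Tyrobp and Trem2 at 0) and 22.7 CPM (11 of 12; Csf1r at 0) at P12. The part of depth and of other cells' RNA in these ratios was not tested.

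**Figure D1:**
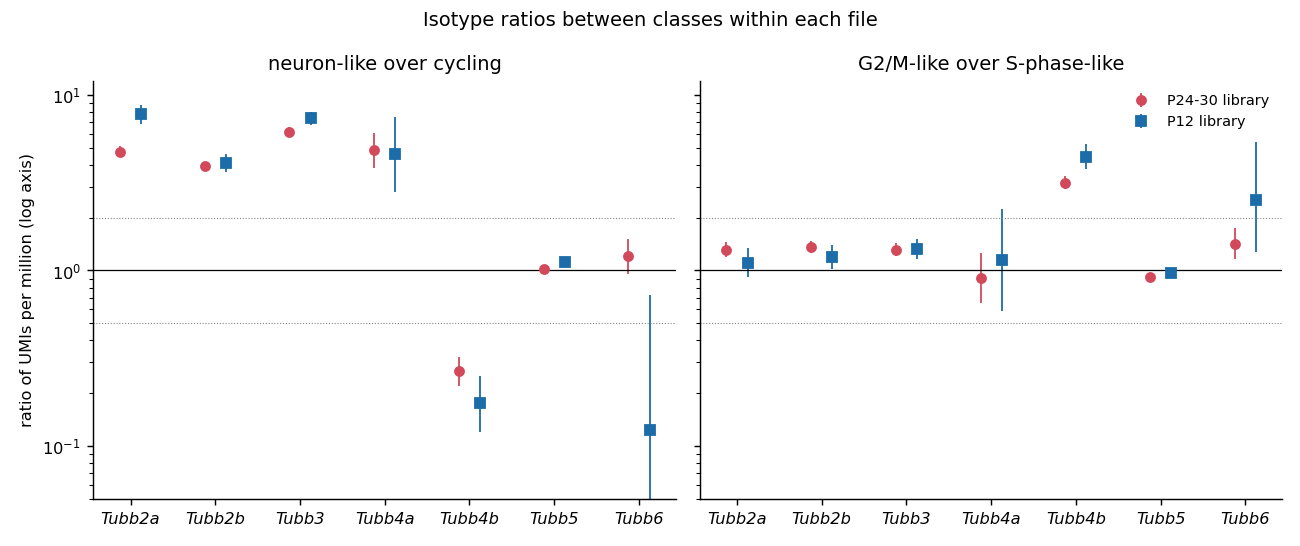
Ratio of CPM for each isotype (log axis), neuron-like over cycling cells on the left and G2/M-like over S-phase-like cells on the right; circles are the P24-30 library, squares P12, bars exact 95% counting intervals, dotted lines 2-fold. Tubb2a, Tubb2b, Tubb3 and Tubb4a lie above the upper dotted line on the left in both files (Tubb3 at 6.18 and 7.36) and Tubb4b below the lower one, while on the right Tubb4b (3.16 and 4.46) and, from 46 UMIs in all, P12 Tubb6 lie above 2-fold. On the left P12 Tubb6 also lies below the lower dotted line, from 1 UMI in neuron-like cells, and its bar runs past the axis.

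Expressed as parts of the beta-tubulin pool, the classes differed most in Tubb5 and the neuronal isotypes. Tubb5 made up 30.9% of beta-tubulin UMIs in neuron-like and 61.1% in cycling cells at P24-30, and 49.5% and 78.9% at P12. Tubb2a, Tubb2b and Tubb3 together made up 65.2% in neuron-like and 27.1% in cycling cells at P24-30, and 49.1% and 13.7% at P12. The level of Tubb5 itself was nearly even between neuron-like and cycling cells, as given above. The 634 histone-led P12 cells, which are outside the cycling class, had Tubb5 at 87.4% of the pool, with Tubb3 at 58.6 CPM. The 923 histone-led P24-30 cells, which are inside it, had Tubb5 at 69.2% (2483 CPM), Tubb3 at 254 CPM and Tubb4b at 205 CPM.

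**Figure D2:**
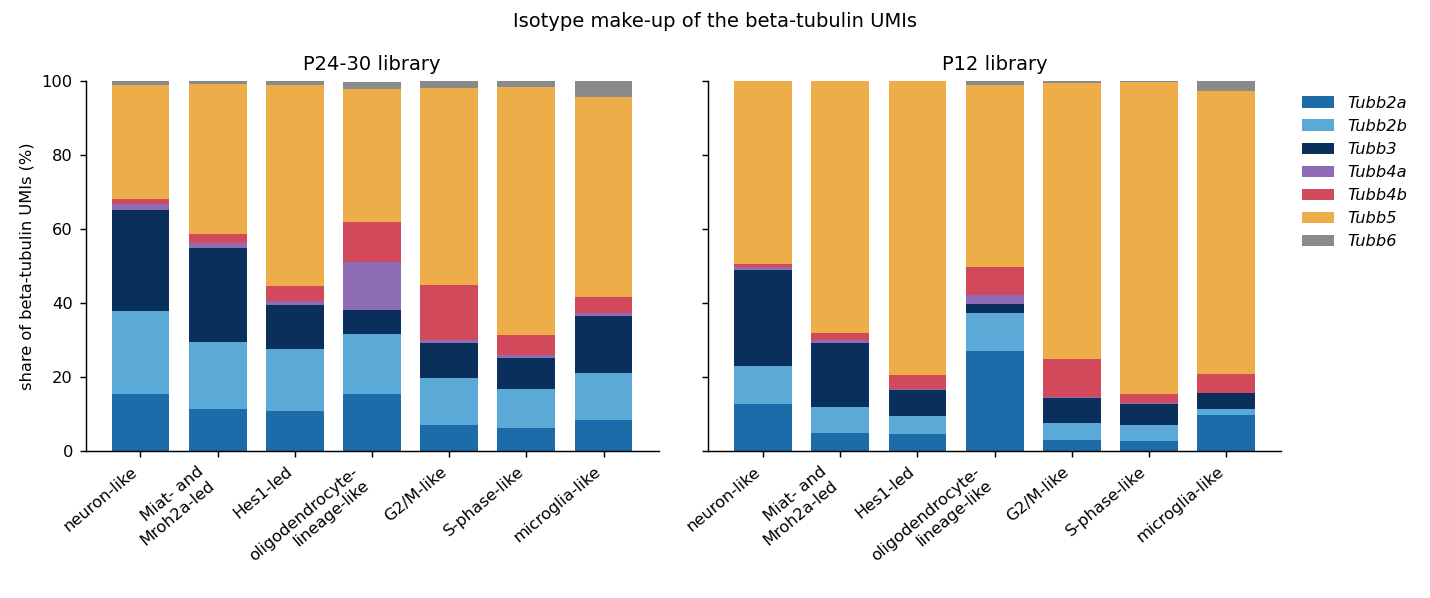
Share of beta-tubulin UMIs (%) held by each isotype in 7 classes of cells; each bar is one class and sums to 100%. Tubb5 fills 30.9% of the neuron-like bar at P24-30 and 49.5% at P12, and Tubb2a, Tubb2b and Tubb3 together take 65.2% and 49.1% of it.

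The share of cells with at least 1 UMI followed the levels. After each cell was thinned to 500 UMIs, Tubb3 was seen in 59.8% of neuron-like cells (56.0% to 63.5%) and 14.0% of cycling cells (12.6% to 15.5%) at P24-30, and in 44.9% and 8.41% at P12. In microglia-like cells (median 2002 and 2091 UMIs), which should lack it, Tubb3 was seen in 5.45% at P24-30 (1.14% to 15.1%) and 1.15% at P12 (0.0291% to 6.24%). Unthinned shares were 91.3% of neuron-like, 49.6% of cycling and 18.2% of microglia-like cells at P24-30, and 80.7%, 28.2% and 3.45% at P12. The cycling share at P24-30 lies inside the microglia-like interval, and at P12 it lies above it. The P24-30 interval rests on 3 of 55 cells, in a class whose Tubb3 level was uneven, as given above. Tubb5 was seen in 66.3% of neuron-like and 61.6% of cycling cells at P24-30 and in 68.5% and 62.3% at P12, against 25.5% and 31% of microglia-like cells, a type that makes tubulin of its own.

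**Figure D3:**
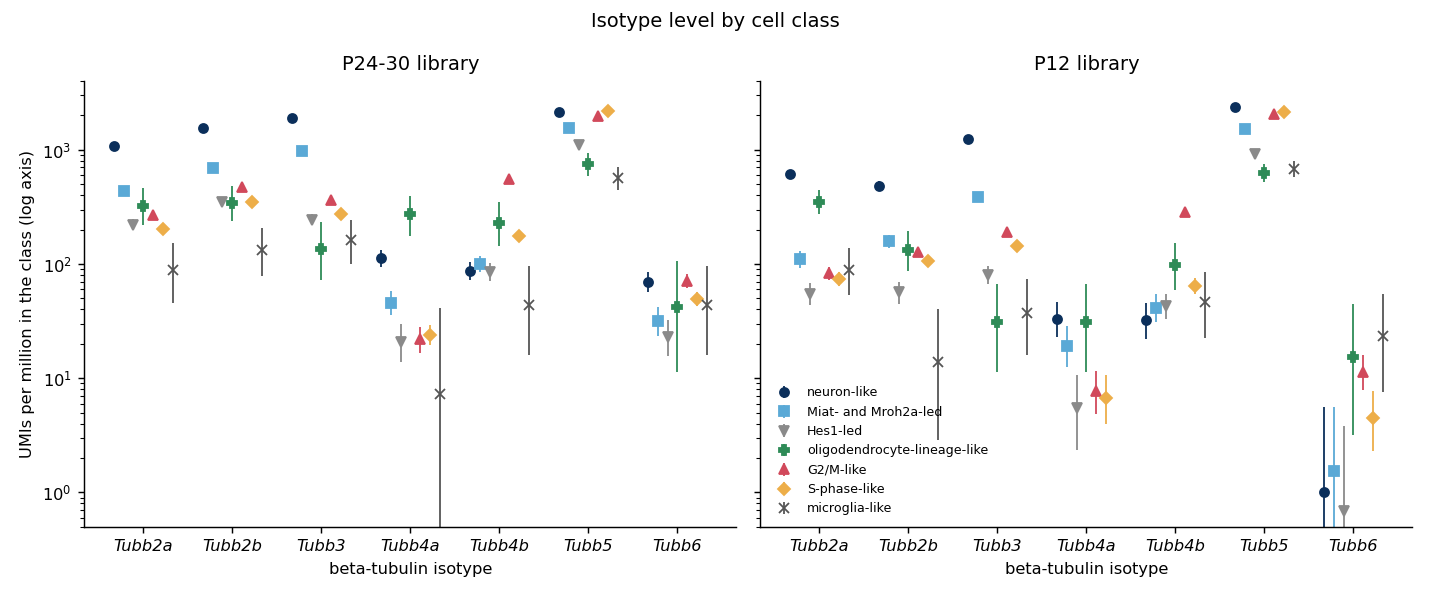
Level of each isotype (CPM in the class, log axis) in 7 classes of cells, P24-30 on the left and P12 on the right; symbols are class sums and bars exact Poisson 95% intervals. Tubb3 lies highest in neuron-like cells (1908 CPM at P24-30 and 1235 CPM at P12), while Tubb4b lies highest in G2/M-like cells (557 and 287 CPM).

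Within cycling cells, Tubb4b alone separated G2/M from S phase by 2-fold or more in both files. It had 557 CPM (530 to 586) in G2/M-like and 176 CPM (164 to 189) in S-phase-like cells at P24-30, a ratio of 3.16 (2.90 to 3.46). At P12 it had 287 CPM (268 to 307) in G2/M-like and 64.4 CPM (55.2 to 74.7) in S-phase-like cells, a ratio of 4.46 (3.78 to 5.28). It was seen in 23.7% of G2/M-like and 8.7% of S-phase-like cells thinned to 500 UMIs at P24-30, and in 15.3% and 3.14% at P12, against 0 of 55 microglia-like cells at P24-30 (which allows up to 5.45%) and 2.3% at P12. Unthinned, 74.4% of G2/M-like, 36.2% of S-phase-like and 10.9% of microglia-like cells had a Tubb4b UMI at P24-30, and 52.5%, 13.1% and 11.5% did at P12. Tubb4b was the 1 of 7 members at least 2-fold higher in G2/M-like cells at P24-30, beside 2.4% of 9151 genes, with 0 lower beside 3.25%. At P12 it was the 1 of 5 members past the minimum, beside 2.89% of 9301 genes higher, with 0 lower beside 3.84%.

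The size of this ratio changed with the place of the histone-led clusters. Without the histone-led cluster, S-phase-like cells at P24-30 (480) had Tubb4b at 119 CPM and the ratio was 4.68 (3.99 to 5.51). With the histone-led P12 cluster added to S-phase-like cells and the cluster led by Cenpa and Ccnb2 to G2/M-like cells, Tubb4b was at 269.9 against 87.7 CPM, a ratio of 3.08 (2.72 to 3.49).

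The other isotypes differed less across the cycle. Tubb2a, Tubb2b and Tubb3 were 1.31- to 1.36-fold higher in G2/M-like than in S-phase-like cells at P24-30, each with an interval above 1, and at P12 their ratios were 1.11 (0.918 to 1.34), 1.19 (1.02 to 1.39) and 1.32 (1.16 to 1.51). Summed differentiating-neuron markers moved the same way, 2331 CPM in G2/M-like against 1982 CPM in S-phase-like cells at P24-30 and 2435 against 2240 CPM at P12 (15 of 16 genes with a UMI in each, Gabra6 at 0), and their part in these ratios was not tested. Tubb5 was slightly lower in G2/M-like cells at P24-30, 1994 against 2183 CPM (0.914, 0.883 to 0.945), and 2070 against 2145 CPM at P12 (0.965, 0.931 to 1.00). This direction turned without the histone-led P24-30 cluster, with Tubb5 at 1994 CPM in G2/M-like against 1594 CPM in the remaining S-phase-like cells (1.25, 1.19 to 1.31). Tubb6, the isotype made mainly outside the nervous system, had 70.8 CPM in G2/M-like and 49.7 CPM in S-phase-like cells at P24-30 (1.42, 1.17 to 1.74), and 34 and 12 UMIs at P12 (2.54, 1.28 to 5.38; 1.42, 0.849 to 2.41, with the 2 P12 clusters added). One P12 cluster of 152 G2/M-like cells also had raised neuron markers. In it Tubb3 stood at 468 CPM against 146 CPM in the other G2/M-like cluster (922 cells), Tubb5 at 2756 against 1963 CPM and Tubb4b at 249 against 293 CPM, and without it the P12 log2 ratio of Tubb3 between neuron-like and cycling cells was 3.09 in place of 2.88. Whether these are single cells or doublets was not tested.

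Between the cycling and neuron-like classes lay the cells led by Miat and Mroh2a, with summed neuron markers of 4412 CPM at P24-30 and 3307 CPM at P12. Neuron-like cells had 1.95-fold more Tubb3 than these at P24-30 (1908 against 981 CPM) and 3.20-fold more at P12 (1235 against 386 CPM). For Tubb2a the ratio was 2.48 at P24-30 and 5.56 at P12, and for Tubb2b 2.24 and 3.06. Tubb5 was also lower in the Miat-led cells, with ratios of 1.39 and 1.55, while the intervals for Tubb4b (0.868, 0.676 to 1.11 at P24-30; 0.772, 0.483 to 1.22 at P12) held 1. The Hes1-led cells had the lowest beta-tubulin of the large classes. They summed to 2051 CPM against 3449 CPM in cycling cells at P24-30 (ratio 0.595, 0.572 to 0.618) and to 1162 against 2667 CPM at P12 (0.436, 0.414 to 0.458). Tubb5 accounted for most of that gap, at 1110 CPM in Hes1-led against 2109 CPM in cycling cells at P24-30 and 921 against 2105 CPM at P12. Tubb4b was 85.7 against 325.7 CPM and 42.9 against 181.8 CPM.

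The glial classes had another make-up. Oligodendrocyte-lineage-like cells (summed lineage markers 22610 CPM at P24-30 and 10300 CPM at P12, with microglia markers at 20.9 and 51.4 CPM and C1qa, Cx3cr1 and P2ry12 at 0 in both) held less Tubb5 than cycling cells, 752 against 2109 CPM at P24-30 (0.357, 0.279 to 0.449) and 632 against 2105 CPM at P12 (0.300, 0.249 to 0.359). Tubb3 was lower too, 136 against 309 CPM at P24-30 (0.439, 0.234 to 0.753) and 30.8 against 168 CPM at P12 (0.184, 0.0673 to 0.402). Tubb2a, which moved with the neuronal isotypes above, was not lower. At P12 it stood at 350 CPM (272 to 443) in these glial cells, from 68 UMIs in 44 of 104 cells, against 78.8 CPM in cycling cells, a ratio of 4.44 (3.39 to 5.74), with microglia-like cells at 88.2 CPM. At P24-30 it stood at 324 CPM against 229 CPM in cycling cells, with an interval that held 1 (1.41, 0.957 to 2.02). Tubb2b was not clearly lower either, at 344.5 CPM (237 to 484) in the glial cells against 395 CPM in cycling cells at P24-30. At P12 Tubb2b had 26 UMIs in 22 of 104 glial cells. Without the highest cell that was 125.5 CPM, no lower than the cycling level given above. Summed differentiating-neuron markers were also above the cycling level in these cells, at 3518 CPM (11 of 16 genes with a UMI; Syt1, Grin2b, Gabra6, Neurod2 and Scg2 at 0) and 3506 CPM (13 of 16; Cntn2, Neurod2 and Scg2 at 0), and at 2119 and 2343 CPM in cycling cells. Summed astrocyte and Bergmann glia markers were at 2088 CPM (11 of 13 genes; Aqp4 and Gdf10 at 0) against 325 CPM in cycling cells (13 of 13) at P24-30 and at 1671 CPM (10 of 13; Aqp4, Gdf10 and Gfap at 0) against 286 CPM (13 of 13) at P12. Choroid plexus markers were at 491 against 104 CPM and 257 against 30.8 CPM (2 of 6 genes in the glial cells of both files, with Folr1, Kl, Clic6 and Prlr at 0). Purkinje markers were at 115 against 12.9 CPM and 190 against 12.7 CPM (3 of 4 in the glial cells, Calb1 at 0), and GABAergic interneuron markers at 115 against 3.58 CPM and 175 against 7.56 CPM (2 of 5; Pax2, Gad2 and Slc32a1 at 0). The part of these lists in the Tubb2a, Tubb2b and Tubb4a levels of the glial class was not tested.

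Tubb4a, the isotype of oligodendrocytes and neurons, had 271 CPM in oligodendrocyte-lineage-like cells at P24-30 against 23.2 CPM in cycling cells (11.7, 7.43 to 17.8). Of its 26 UMIs, 19 came from 1 cell and 5 of 45 cells had any; without that cell the level was 78.0 CPM. At P12 it had 6 UMIs in 5 of 104 cells, 30.8 CPM against 7.21 CPM in cycling cells (4.28, 1.49 to 10.1). The 39 astrocyte-like P12 cells had Tubb5 at 1269 CPM, Tubb3 at 261 CPM (162 to 399), Tubb2b at 224 CPM (133 to 354) and Tubb2a at 162 CPM (86.1 to 277). Tubb4a and Tubb6 had 0 UMIs there, which allows up to 37.3 CPM. Microglia-like cells summed to 1039 CPM of beta-tubulin at P24-30 and 887 CPM at P12, mostly Tubb5 (564 and 678 CPM), with Tubb3 at 161 CPM and 37.1 CPM (8 UMIs in 3 of 87 cells).

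The P24-30 file tags its cells G1 to G16. No label explains the tags, which could be clusters built on these very genes, so their levels are given as a description. Of the 16 tags, 14 held at least 50 kept cells. Tubb3 ran from 262.5 CPM in G2 over a median of 556 CPM to 1589 CPM in G12, a 6.05-fold range. The top of its order was G12 (1589 CPM), G11 (1497 CPM), G13 (1277 CPM) and G14 (1042 CPM), followed by G4 and G15 (840 and 817 CPM) and G7 (603 CPM). Of 13 neighbouring pairs in that order, 6 had a ratio whose interval held 1, among them G12 over G11, G4 over G15 and G1 over G2. Neuron-like cells made up 54.9% of G12, 48.5% of G13, 46.0% of G11 and 37.7% of G14, and 0% of G2 and G1.

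Tubb2a (208 to 885 CPM) and Tubb2b (362 to 1222 CPM) were also lowest in G2 and highest in G11 or G12. Over the 14 tags, log2 levels of Tubb2a correlated with those of Tubb2b at r = 0.989 and of Tubb3 at r = 0.986; the tags share a library and differ in depth and class make-up, so these values describe this file. Tubb4a ran from 20.2 CPM (G1) to 115 CPM (G11), and 12 of its 13 neighbouring pairs could not be told apart by counting. Tubb4b had another order: 696 CPM in G16 (99.5% G2/M-like), 375 CPM in G1 (65.7% G2/M-like) and 221 CPM in G2 (92.4% S-phase-like), down to 68.0 CPM in G7. Its r with summed G2 and M phase markers was 0.91. Tubb5 was highest in G1 (2517 CPM) and G2 (2443 CPM) and lowest in G10 (728 CPM), a tag of 73 kept cells with a median of 789 UMIs of which 83.6% were in unnamed clusters. Tubb6 ran from 15.5 to 89.0 CPM, and every one of its 13 neighbouring pairs had an interval that held 1. Tag G8 (35 cells, all microglia-like) summed to 470 CPM.

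**Figure D4:**
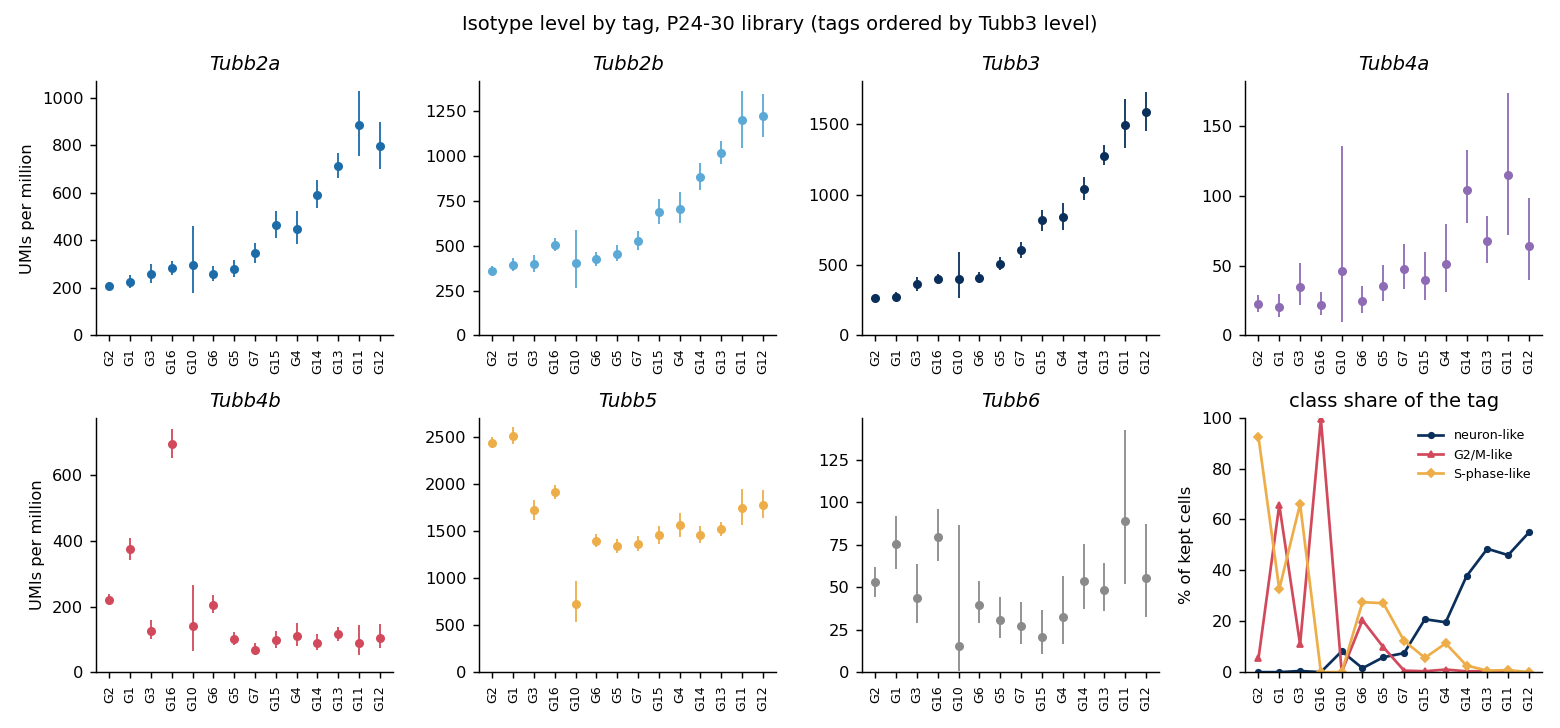
Level of each isotype (CPM) in the 14 tags of the P24-30 library with at least 50 kept cells, ordered by Tubb3; points are tag sums, bars exact Poisson 95% intervals, and the last panel gives the share (%) of each tag's cells in 3 classes. Tubb2a, Tubb2b and Tubb3 are all high in G11 and G12 (Tubb3 1589 CPM in G12), where 46.0% and 54.9% of cells are neuron-like, while Tubb4b is highest in G16 (696 CPM).

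Levels of single classes were also set out by tag. In neuron-like cells of the 5 tags with at least 40 of them (G11 to G15, where Tubb3 over all cells ran from 817 to 1589 CPM), Tubb3 ran from 1756 to 2169 CPM, Tubb2a from 1024 to 1304 CPM and Tubb5 from 2103 to 2238 CPM. In G2/M-like cells Tubb5 stood at 2465 CPM in G1, 2455 CPM in G2 and 1917 CPM in G16 but at 915 CPM (786 to 1059) in G6, and in S-phase-like cells it ran from 1107 CPM in G7 to 2688 CPM in G1. Tubb4b in G2/M-like cells ran from 361 CPM (G6) to 698 CPM (G16). Tag G6 as a whole had summed G2 and M phase markers at only 1350 CPM, though 20.4% of its cells were G2/M-like. In G1 (65.7% G2/M-like) they were at 10390 CPM and in G16 (99.5%) at 13980 CPM. The part of this in the low G6 values was not tested.

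Of 7062 genes with at least 200 UMIs, those whose log2 levels over the 14 tags were most like each member were, for Tubb2a, Clmp (r = 0.984), Tcf4 (0.982) and Basp1 (0.981); for Tubb2b, Basp1 (0.994), Tcf4 (0.991) and Gpm6a (0.987); and for Tubb3, Stmn2 (0.984), Tmsb4x (0.983) and Gpm6a (0.981). Stmn2 encodes a microtubule-destabilising protein of growing axons and Basp1 a growth cone protein. For Tubb4b they were Kif2c (0.97), a microtubule-depolymerising kinesin of the spindle, Ccnb1 (0.957), a mitotic cyclin, and Cks2 (0.954), a partner of cyclin-dependent kinases. Tubb4a was nearest to Zfp57 (0.952), Pdzrn3 (0.933) and Sat1 (0.931), Tubb5 to H1f0 (0.916), Lmo4 (0.908) and Stard3nl (0.906), and Tubb6 to Kbtbd2 (0.879), Kctd18 (0.865) and Arid2 (0.856).

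Levels were also followed without clusters, along the marker content of single cells outside the glial, vascular and microglia-like classes. Cells were thinned to 500 UMIs and binned by their UMIs of differentiating-neuron markers, among cells with no G2 and M phase UMI after thinning. Levels were then taken from all UMIs of these cells. Over bins of 0, 1, 2, 3 to 4 and at least 5 UMIs, Tubb3 stood at 296, 528, 747, 1171 and 1963 CPM at P24-30 and at 118, 198, 333, 774 and 1279 CPM at P12, higher in each bin than in the one before. Between the lowest and the highest bin, Tubb2a went with it (224 and 1143 CPM at P24-30, 62.5 and 687 CPM at P12), and so did Tubb5 on a smaller scale (1371 and 2241 CPM, 1268 and 2461 CPM). Tubb4b was level at P24-30 (96.8 and 98.1 CPM) and at 41.7 and 27.8 CPM at P12. Over cycling cells, by contrast, Tubb4b was lower in neuron-like cells in both files and Tubb5 nearly level, as given above. No cell of these bins had a G2 and M phase UMI after thinning, but at full depth such cells can hold some. Of neuron-like cells, 475 of 689 at P24-30 and 338 of 626 at P12 had none at full depth. Along G2 and M phase markers, among cells with no neuron-marker UMI after thinning, Tubb4b stood at 96.8, 159, 271, 339 and 560 CPM at P24-30 and at 41.7, 40.8, 77.7, 119 and 222 CPM at P12. Tubb5 was again higher in the highest bin than in the lowest (2124 against 1371 CPM, and 1996 against 1268 CPM), while Tubb3 was not (281 against 296 CPM, and 112 against 118 CPM). Cells with at least 2 UMIs of both lists (470 and 899) had Tubb3 at 511 and 279 CPM and Tubb4b at 408 and 198 CPM.

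**Figure D5:**
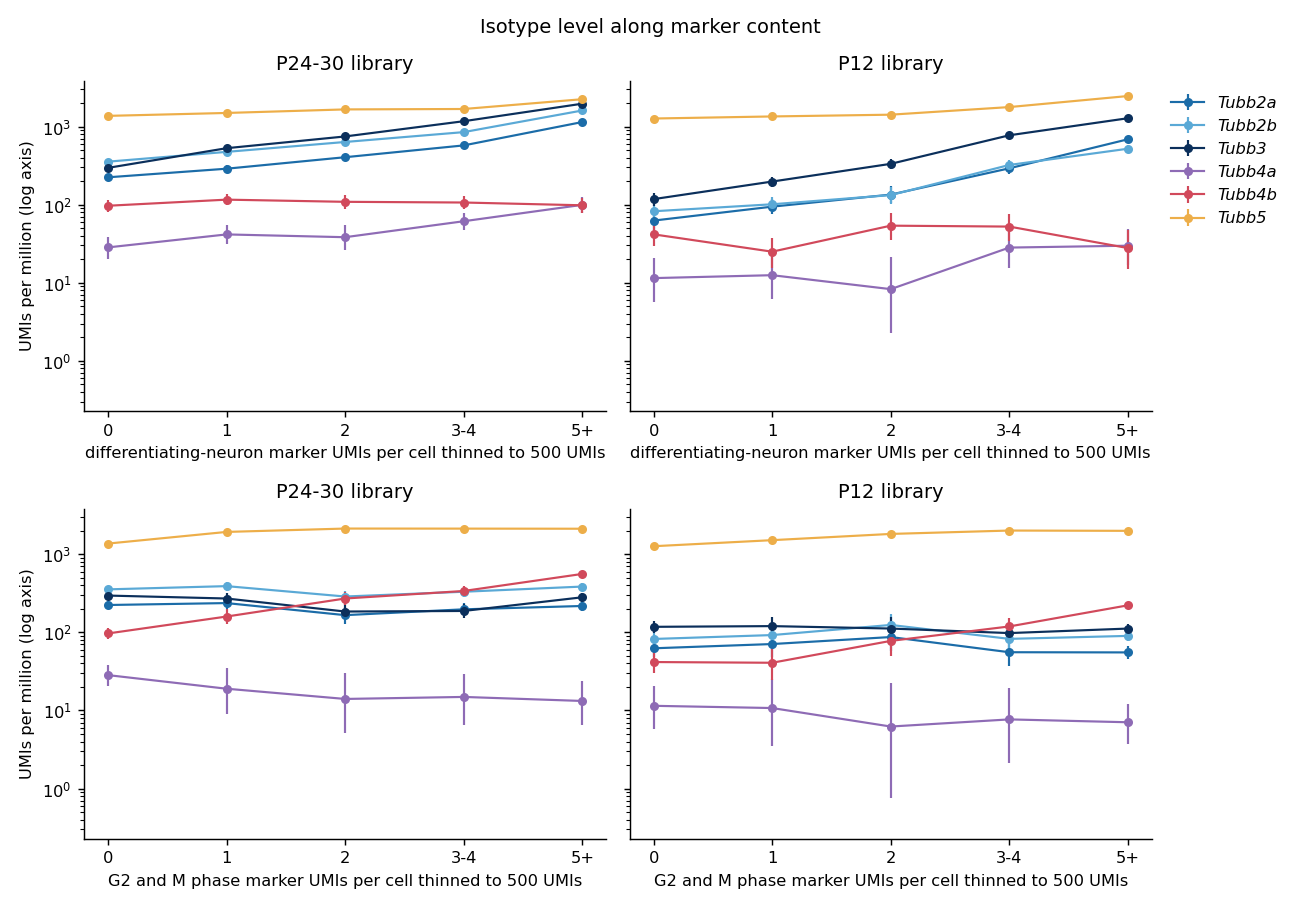
Level of 6 isotypes (CPM, log axis) against the number of marker UMIs per cell after thinning to 500 UMIs; upper panels bin cells by differentiating-neuron markers, lower panels by G2 and M phase markers, bars are exact Poisson 95% intervals, and Tubb6 is left out for low counts. At P24-30 Tubb3 goes up along the neuron markers (296 to 1963 CPM) and Tubb4b along the G2 and M phase markers (96.8 to 560 CPM).

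Partners and regulators of beta-tubulin were followed through 5 lists of genes in the same contrast of neuron-like over cycling cells. The counts below are beside 13.1% of all genes tested at least 2-fold higher and 11.1% lower at P24-30, and 10.7% higher and 14.2% lower at P12. Of the alpha-tubulins, the other part of the dimer, Tuba1a had 5233 CPM in neuron-like and 2810 CPM in cycling cells at P24-30 (1.86) and 5157 against 1686 CPM at P12 (3.06). Tuba1b was near level at P24-30 (1.03) and lower at P12 (145 against 613 CPM, 0.237), and Tuba1c had 1.46 at P24-30 but 2 UMIs in neuron-like against 513 UMIs in cycling cells at P12 (0.0222, 0.00269 to 0.0808). Of 4 alpha-tubulins past the minimum at P24-30, 0 were 2-fold higher or lower, and of 3 at P12, 1 was higher and 2 were lower. Structural microtubule-associated proteins, a list of lattice-binding proteins and others such as the stathmins Stmn1 and Stmn4, had 9 of 19 higher (beside 13.1% of all genes) and 2 lower (11.1%) at P24-30 and 7 of 19 higher (10.7%) and 2 lower (14.2%) at P12. Among them Dcx, a stabiliser in migrating neurons, had 5.51 and 5.01, Mapt, which encodes tau, 2.80 and 4.99, Dclk1 0.460 and 0.422, and Ckap5, a microtubule polymerase of the spindle, 0.413 and 0.338, at P24-30 and P12 in that order.

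Of tubulin-modifying enzymes, which act on the dimer and its tail, 4 of 10 were higher at P24-30 (beside 13.1% of all genes) and 2 of 11 at P12 (10.7%), with 0 lower in either (11.1% and 14.2%). Atat1, the alpha-tubulin acetyltransferase, had ratios of 3.35 and 3.02 at P24-30 and P12, Ttll1, a polyglutamylase subunit, 5.85 and 2.72, Ttll5 1.08 and 0.639, and Ttll4 0.669 and 0.541. Genes of tubulin folding and autoregulation were nearly even. Of these, 1 of 20 was 2-fold higher at P24-30 (Tbce, a folding cofactor, 2.77; 13.1% of all genes) and 0 of 21 at P12 (10.7%), where Tbce had 1.82, Tbcc 1.42, and the chaperonin subunits Tcp1 and Cct3 had 0.761 and 0.729. Of gamma-, delta- and epsilon-tubulins and gamma-ring partners, 0 were higher (13.1% and 10.7% of all genes), 2 of 10 were lower at P24-30 (11.1%) and 3 of 9 at P12 (14.2%). Of these, gamma-tubulin and its ring nucleate microtubules at centrosomes. Nedd1, which recruits the gamma-ring, had 0.458 at P24-30 and 0.334 at P12, Tube1 0.404 and 0.276, Tubgcp5 1.31 and 1.35, and Mzt2 1.05 and 1.16. Median log2 ratios at P24-30 and P12 were 0.65 and -2.08 for the alpha-tubulins, 0.97 and 0.90 for the microtubule-associated proteins, 0.81 and 0.48 for the modifying enzymes, -0.077 and 0.022 for folding and -0.53 and -0.78 for the gamma-ring list. The P12 alpha-tubulin median rests on 3 genes and includes Tuba1b and Tuba1c, which are among the near-identical genes given below. Summed over the list, alpha-tubulins were higher in neuron-like than in cycling cells in both files. The sums were 10150 against 6902 CPM at P24-30 and 5316 against 2394 CPM at P12.

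Set side by side between ages, Tubb2b, Tubb4a and Tubb6 were at least 2-fold higher at P24-30 than at P12 in both neuron-like and cycling cells on either scale used here. Ratios are over the genes both files list and relative to the median gene, which was itself lower at P24-30 by a log2 of -0.27 in neuron-like and -0.38 in cycling cells. In neuron-like cells 5 of 7 members were at least 2-fold higher, beside 10.8% of 6264 genes, and 0 lower, beside 4.05%. These were Tubb2a (2.09, 1.90 to 2.30), Tubb2b (3.77, 3.41 to 4.17), Tubb4a (3.97, 2.71 to 5.97), Tubb4b (3.18, 2.14 to 4.87) and Tubb6 (81.7, 14.3 to 3261, from 93 and 1 UMIs), while Tubb3 had 1.81 (1.69 to 1.94) and Tubb5 1.08 (1.02 to 1.14). Without the scaling to the median gene, 4 of 7 were at least 2-fold higher, beside 8.75% of genes, and 0 lower, beside 8.7%; Tubb2a had 1.73 (1.57 to 1.90) and Tubb5 turned to 0.891 (0.844 to 0.942). In cycling cells 6 of 7 were higher, beside 9.92% of 10061 genes, and 0 lower, beside 3.39%. There Tubb2a had 3.63, Tubb2b 4.18, Tubb3 2.30, Tubb4a 4.01, Tubb4b 2.24 and Tubb6 8.94 (6.58 to 12.4), with Tubb5 at 1.25 (1.22 to 1.28). Without the scaling 4 of 7 were at least 2-fold higher, beside 7.58%, and 0 lower, beside 10%; Tubb3 had 1.76, Tubb4b 1.71 and Tubb5 turned to 0.958 (0.935 to 0.981). Since the cycling class is made up differently in the files, the scaled ratios were also taken without the histone-led P24-30 cells, where Tubb3 had 2.56, Tubb4b 2.78 and Tubb5 1.10 (1.06 to 1.13), and with the histone-led and Cenpa- and Ccnb2-led P12 cells added, where Tubb3 had 2.5, Tubb4b 2.35 and Tubb5 1.27 (1.24 to 1.30).

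Near-identical tubulin genes did not come out alike in the 2 files. Tubb4b-ps1, a processed copy of Tubb4b, held 1598 UMIs among kept cells at P24-30 and 16 at P12. In neuron-like cells Tuba1c had 2404 CPM at P24-30 and 2.01 CPM at P12, and Tuba1b 2494 and 145 CPM. Age, library and the way reads on near-identical genes were counted cannot be told apart in this comparison. Microglia-like cells had Tubb3 at 169 CPM at P24-30 against 39.7 CPM at P12 over the shared genes (5.02 relative to the median gene, 2.15 to 13.0, from 22 and 8 UMIs), Tubb2b at 138 against 14.9 CPM (ratio 11, 3.20 to 58.1, from 18 and 3 UMIs) and Tubb5 at 592 against 725 CPM (0.963, 0.721 to 1.28). The P24-30 class was uneven. Its 35 cells of tag G8 had Tubb3 at 35.2 CPM (3 UMIs) and Tubb2b at 23.5 CPM (2 UMIs) over all genes of that library. The make-up of the class thus cannot be told apart from age, library and counting in these ratios.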

How the data were processed

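Drop-seq libraries of 2 ages were analysed, 1 per age. The P12 file as deposited by the authors holds whole-number counts per gene and cell, taken here as UMIs. For P24-30 the authors deposited values on a natural log scale; undoing the log and the scaling gave whole UMIs, within 0.01, for 100% of its 6195642 non-zero values. The submitters' processing notes name CASAVA and mm10; the aligner and the counting tool were not given in the sources used here.

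Cells needed at least 500 UMIs, at most 20% mitochondrial and at most 1% erythroid-marker UMIs, which left out 153, 49 and 2 cells at P24-30 and 9, 268 and 2 at P12. Totals over all cells were 12256463 and 12265399 UMIs. No doublet caller was run. Each file was clustered alone (scanpy 1.11.5, 2000 variable genes, 30 components, 15 neighbours, Leiden resolution 1) without tubulin genes, and clusters were named from marker lists by mean log2 difference from the other cells, with a pseudocount of 20 CPM. Thresholds of 2.5 (glial), 0.75 (neuron), 1 (G2 and M) and 0.5 (S), with at least 3 raised markers, were set after the clusters were seen. UMIs were summed over a class. Ratios carry exact conditional, levels exact Poisson and shares Clopper-Pearson intervals at 95% (scipy 1.17.1), tested on simulated data. A count of 0 was given a limit of 3 UMIs or cells.

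Named were all 7 members, the 2 highest and 2 lowest genes of each list by P12 ratio, and the 3 genes most like each member over tags (log2 CPM, pseudocount 20, tubulins left out). The members and lists were chosen with earlier results of these data known.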

Additional observations from a re-analysis of the deposited data

How the results depend on the processing

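Ratios of neuron-like over cycling cells were recomputed under 14 or 15 other settings per result and file, some of them chosen after seeing the data (no erythroid filter, leaving out the histone-led P24-30 cycling cluster or adding 2 cycling-like P12 clusters, leaving out the P12 G2/M-like cluster with raised neuron markers, taking the microglia-like level off both classes, and adding the processed copies to Tubb4b). No called direction of these reversed. The log2 ratio of Tubb3 at P24-30 (2.63) moved beyond its counting interval to 2.47 with at least 1000 UMIs per cell, 2.76 with no mitochondrial filter, 2.73 at Leiden resolution 2, 2.82 with tubulins in the clustering, 2.46 without the histone-led cluster and 3.56 with the microglia-like level off. At P12 (2.88) it moved to 3.16 with tubulins in the clustering, 3.16 with classes from markers per cell, 3.09 without the neuron-marker cluster, 3.01 with the 2 clusters added and 3.20 with the microglia-like level off. That of Tubb5 at P24-30 (0.031) was -0.043 with at least 1000 UMIs, 0.11 with no mitochondrial filter, -0.20 with no erythroid filter, 0.15 at resolution 2, 0.11 with tubulins in the clustering, -0.10 with classes from markers and 0.22 without the histone-led cluster. At P12 (0.16) it was 0.27 with at least 1000 UMIs, 0.27 with no mitochondrial filter, 0.30 with tubulins in the clustering, 0.068 with classes from markers and 0.23 with the microglia-like level off. The cause of these moves was not tested. Cell filters and clustering choices also redrew the classes. Without the erythroid filter, which had left out 2 P24-30 cells, that file had 809 neuron-like and 1548 cycling cells, against 689 and 2260 in the main setting. Taking the microglia-like level off also takes off tubulin that microglia-like cells make themselves, so those values are not corrected for free RNA alone. With the microglia-like level off, 0 members in place of 1 were 2-fold lower at P12, since Tubb4b in neuron-like cells lies under that level, and with the 2 clusters added 2 were, since Tubb6 then passed the minimum. At P24-30 Tubb2a and Tubb2b each moved under 7 settings (2.02 to 2.83 and 1.75 to 2.43), Tubb4a under 1 (2.72, microglia-like level off) and Tubb4b under 2 (-2.70 with that level off, -2.22 without the histone-led cluster); at P12 Tubb2a and Tubb2b moved under 1 (3.41 and 2.22, tubulins in the clustering). Without the median-gene scaling, log2 P24-30 over P12 of Tubb5 reversed to -0.17 in neuron-like and -0.062 in cycling cells, and without the histone-led cluster its log2 G2/M-like over S-phase-like ratio at P24-30 reversed to 0.32. Both settings were chosen after seeing the data, and the cause of the reversals was not tested. The count of higher members was 4 at P24-30 under all 14 settings and 3 or 4 at P12 under 15. In the main setting 13.1% and 10.7% of all genes tested were higher, and 11.1% and 14.2% lower. At 1.5-fold, 27.0% of all genes were higher and 18.2% lower at P24-30, and 21.5% and 23.4% at P12. With at least 200 UMIs per gene, 8.88% were higher and 10.8% lower at P24-30, and 7.74% and 13.3% at P12. Shares under the other settings are not given here. Tubb6 at P24-30 ran from -0.47 to 0.89. Low counts limit Tubb6 and Tubb4a at P12 and all glial classes, and 1 library per age limits every statement to these libraries. No paired analysis was possible because each age has 1 library.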
